A study of Homo sapiens with 3 samples.

Results

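The genes followed here are 9 genes that sense RNA or DNA and pass the signal on. They were chosen by name, under the older symbols that the expression tables use, from the 23284 gene names listed for each library. All 9 were found: DDX58, IFIH1 and TLR3 among the RNA receptors, MB21D1 as the DNA receptor, MAVS and TMEM173 as adaptors, TBK1 as the kinase, and IRF3 and IRF7 as the transcription factors. The values come from RNA-seq of 293T cells, a line of human embryonic kidney origin, in 3 groups of 1 library each. Every group carried dCas9-VP64, a Cas9 without cutting activity fused to a transcriptional activator. The mock group received the empty guide RNA vector, and the other groups received sgL1ASP #1 or sgL1ASP #3, guides against the antisense promoter (ASP) of the LINE-1 (L1) retrotransposon. Both effector and guide came from plasmids in a culture that was read as a whole, and no selection of the cells that took them up is stated for this experiment. The question put to these genes is whether their mRNA differed when the L1 ASP was targeted.

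RIG-I, the product of DDX58, and MDA5, the product of IFIH1, are helicases that bind double-stranded RNA in the cytosol and signal through MAVS on the mitochondrial surface. TLR3 detects double-stranded RNA inside endosomes and signals through the adaptor TICAM1. The enzyme cGAS, the product of MB21D1, binds cytosolic DNA and makes the messenger cGAMP, which activates STING, the product of TMEM173, on the endoplasmic reticulum. These routes meet at the kinase TBK1, which phosphorylates IRF3 and IRF7, and these factors then switch on interferon genes. Kidney-derived 293T cells are commonly used to rebuild the cGAS and STING route from plasmids because they hold little of either protein. L1 makes both RNA and, by reverse transcription, DNA, which are the kinds of molecule that these receptors bind.

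The unit throughout is FPKM, which counts mapped fragments per length of exon and per size of the library, so levels of different genes can be compared per length. Where 3 values of a gene follow each other, they are those of mock, sgL1ASP #1 and sgL1ASP #3, in this order. Since each condition is 1 library, the differences between conditions lack a check against replicates, and p-values are not given. Of the listed genes, 12347 (53.0%) reached FPKM 1 in all 3 libraries and 5642 (24.2%) were at 0 in all of them. The worth of a single read puts the depth at about 10500000 reads for mock, 10300000 for sgL1ASP #1 and 8700000 for sgL1ASP #3. These are estimates from FPKM, and any scaling that was applied between the libraries is part of them. Of the 9 markers listed for 293T cells, VIM, a filament gene, had FPKM 807, 904 and 862, while the kidney factor PAX2 stayed between 0.522 and 0.658 and SOX11 was at or near 0. PTPRC, LYZ and CD3E, which define leukocytes, were at 0 in every library, and the 7 leukocyte markers summed to between 5.71 and 6.76. COL1A2 and DCN, which mark fibroblasts, were also at 0, COL1A1 had FPKM 2.55, 1.99 and 2.46 and COL3A1 had 0.468, 0.292 and 0.152, and the 5 fibroblast markers summed to between 2.28 and 3.21. The 3 endothelial markers summed to between 0.128 and 0.281. Among the 4 erythroid and liver markers, HBB was at 0, and the list summed to between 4.95 and 6.96. The liver gene APOA1 was the highest of them, with FPKM 5.39, 3.36 and 3.82, and ALB had 0.467, 0.284 and 0.337. HBA1, an alpha globin gene with a near-identical copy, had FPKM 0.259, 1.31 and 2.80. The part of these markers in the results below was not tested.

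The 9 genes fell apart into 3 that were well expressed and 6 that were hardly expressed, and this split was the same in the 3 libraries. IRF3, MAVS and TBK1, which act after the receptors, had mean FPKM 40.4, 15.5 and 11.2. The other 6 genes were under 1 in every library. They were all 4 receptors, the DNA-route adaptor TMEM173 and IRF7. TBK1 alone was 6.81, 6.09 and 7.12 times the summed FPKM of these 6 genes. In a culture read as a whole, fewer cells with an mRNA and less of it per cell cannot be told apart.

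The low values could be turned back into reads. Among genes under FPKM 0.3 in both libraries, 350 of 1476 had the ratio 1.01305 between sgL1ASP #1 and mock, and 332 of 1404 had the ratio 1.20334 between sgL1ASP #3 and mock. These ratios are those of genes with equal numbers of reads, and dividing by them gave whole numbers, to within 0.002%, for 71.6% of the 3442 genes that were under FPKM 1 everywhere and above 0 in at least 2 libraries. The read numbers below are the smallest that match, and a common multiple of them cannot be told apart from the ratios alone. For TBK1 the doubled numbers are given, since they imply a transcript of 3090 bases where one of 3092 is annotated. TBK1 has 71 annotated transcripts, so a length this close can also occur by coincidence, and its reads and intervals rest on this choice. The intervals cover counting error only, and reads without molecular identifiers are not independent molecules.

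DDX58 was the highest of the receptors. Its FPKM was 0.628, 0.721 and 0.780, from 30, 34 and 31 reads. Mock was thus the lowest of the libraries and sgL1ASP #3 the highest, while sgL1ASP #1 had the most reads. The ratio to mock was 1.15 (95% interval 0.682 to 1.94) with sgL1ASP #1 and 1.24 (0.728 to 2.13) with sgL1ASP #3. Counting error alone therefore spans values from a decrease to about a doubling, and a smaller difference was not detectable at this depth. DDX58 lies on the minus strand of chromosome 9 of GRCh37, from 32455300 to 32526206, where a protein-coding locus without a symbol of its own shares exonic sequence on the same strand.

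IFIH1, the gene of the long double-stranded RNA sensor MDA5, had 0 reads in mock and sgL1ASP #1 and 1 read in sgL1ASP #3, where that read was worth FPKM 0.0356. A count of 0 allows up to 0.0888 in mock and 0.0900 in sgL1ASP #1, so the single read lies below the limit of the libraries at 0. TLR3 was listed at 0 in all 3 libraries. For its longest annotated transcript, 6015 bases, this allows FPKM of up to 0.0493, 0.0499 and 0.0593. No ratio between conditions can be given for either gene. IFIH1 lies on chromosome 2 of GRCh37 from 163123584 to 163175194 on the minus strand, and TLR3 on chromosome 4 from 186990065 to 187009227 on the plus strand.

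MB21D1, which encodes cGAS, had FPKM 0.119, 0.0605 and 0.0718. Behind these values stood 2 reads in mock and 1 read in each of the other libraries. These numbers imply a transcript of 1800 bases where 1917 are annotated, so a multiple of them is possible. The ratios to mock, 0.507 with sgL1ASP #1 and 0.602 with sgL1ASP #3, are lower by more than 1.5-fold, but their counting intervals run from 0.00859 to 9.73 and from 0.0102 to 11.6. The difference between 0.0605 and 0.0718 is only what 1 read was worth in each library. MB21D1 lies on chromosome 6 from 74123238 to 74162020 on the minus strand.

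The promoters of 5 of the 9 genes were matched in the RefSeq promoter table of GRCh38.p14, which holds 250 bases before and 50 bases after each start. They were searched on both strands for GAAANNGAAA, the core of the element through which interferon-activated factors and IRF proteins bind. The motif occurred in the promoters of IFIH1 (3 matches, of which 2 overlap) and TLR3 (1 match), and not in those of DDX58, TBK1 and MAVS. It occurs in 3.57% of the 35116 promoters in the table, and at least 3 matches occur in 0.0370% of them. Both promoters are shown with the matches in capitals, and that of TBK1 is shown beside them as a promoter of the well expressed group without a match. IFIH1 is at chr2:162318635-162318934 on the minus strand, TLR3 at chr4:186068906-186069205 on the plus strand and TBK1 at chr12:64451870-64452169 on the plus strand, and each is written 5′ to 3′ in the direction of its gene.
IFIH1: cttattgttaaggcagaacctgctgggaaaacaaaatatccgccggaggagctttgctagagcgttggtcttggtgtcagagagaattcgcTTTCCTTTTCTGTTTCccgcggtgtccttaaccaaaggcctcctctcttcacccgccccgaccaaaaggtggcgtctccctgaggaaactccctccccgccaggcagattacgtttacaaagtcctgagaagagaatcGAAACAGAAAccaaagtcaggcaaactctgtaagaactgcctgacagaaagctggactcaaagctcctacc
TLR3: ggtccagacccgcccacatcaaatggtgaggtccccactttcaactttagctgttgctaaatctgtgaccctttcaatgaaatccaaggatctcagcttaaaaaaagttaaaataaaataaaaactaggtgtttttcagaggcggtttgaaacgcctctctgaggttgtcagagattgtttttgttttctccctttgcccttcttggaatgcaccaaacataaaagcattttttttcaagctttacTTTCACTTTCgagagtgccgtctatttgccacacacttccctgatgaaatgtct
TBK1: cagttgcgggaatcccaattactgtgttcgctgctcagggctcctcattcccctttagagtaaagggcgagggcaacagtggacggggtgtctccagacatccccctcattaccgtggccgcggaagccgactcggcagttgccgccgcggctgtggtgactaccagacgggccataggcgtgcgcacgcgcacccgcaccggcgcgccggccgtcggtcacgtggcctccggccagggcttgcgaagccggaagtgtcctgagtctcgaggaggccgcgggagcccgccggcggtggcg

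In the IFIH1 promoter the matches cover the bases from -159 to -144 and from -21 to -12, and in TLR3 the match spans the start, from -4 to 6, where 1 is the first transcribed base. The number of CG dinucleotides in these 300 bases was 35 in TBK1, 34 in MAVS, 27 in DDX58, 12 in IFIH1 and 5 in TLR3, against a median of 14 over the table. Of these genes TBK1 and MAVS, which were well expressed, had the most and TLR3, which was at 0, had the fewest. DDX58, which was under FPKM 1, also lay above the median, and 29.6% of the promoters have fewer than TLR3. The promoters of IRF3, IRF7, MB21D1 and TMEM173 were not matched, and a link between this number and the level was not tested. Over the 14048 genes with both a promoter and a value, 452 hold the motif, and 47.1% of these had FPKM at least 1 in every library, against 62.7% of the genes without it. A gene at 0 in every library was found in 26.5% and 16.6% of these groups. A match is a run of letters and not a site shown to be bound. Only this spacing was searched, and the DDX58 promoter holds GAAACGAAA, with a shorter spacer, which was not counted. The lack of a match therefore does not show that a promoter has no such element.

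The adaptors stood far apart in level. MAVS, through which RIG-I and MDA5 signal, had FPKM 16.1, 15.1 and 15.3. TMEM173, the gene of STING, had 0.484, 0.539 and 0.466, from 10, 11 and 8 reads. The level of MAVS was 33.2, 28.1 and 32.9 times that of TMEM173. The ratio of MAVS to mock was 0.941 (0.882 to 1.00) with sgL1ASP #1 and 0.953 (0.890 to 1.02) with sgL1ASP #3, with reads estimated from its longest annotated transcript. For TMEM173 the ratios were 1.11 (0.430 to 2.93) and 0.963 (0.330 to 2.71). Mock was the highest library for MAVS, and its intervals reach 1 or beyond, whereas for TMEM173 the reads do not exclude a doubling or a decrease to under 0.5 times mock. MAVS lies on chromosome 20 from 3827446 to 3856770 on the plus strand, and TMEM173 on chromosome 5 from 138855118 to 138862520 on the minus strand.

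TBK1, the kinase at which the routes meet, had FPKM 10.8, 10.9 and 11.9, from 328, 326 and 298 reads. The libraries of mock and sgL1ASP #1 were nearly equal, and sgL1ASP #3 was the highest. The ratio to mock was 1.01 (0.861 to 1.18) with sgL1ASP #1 and 1.09 (0.931 to 1.28) with sgL1ASP #3. Of the 3 well expressed genes TBK1 varied the most, with a range of 0.13 on the log2(FPKM + 0.1) scale, and 40.4% of the genes whose mean FPKM was at least 1 varied less. The range was 0.098 for IRF3 and 0.087 for MAVS, with 28.4% and 23.7% of genes varying less. TBK1 lies on chromosome 12 from 64845870 to 64895894 on the plus strand, and a long noncoding RNA without a symbol shares exonic sequence with it on that strand.

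The genes whose values followed TBK1 most closely were TBC1D15, LRP5 and DMD, out of 4870 genes outside the pathway with mean FPKM within 2-fold of it. Likeness was the largest difference between profiles centred over the 3 libraries, and it was 0.0021, 0.0031 and 0.0034 on the log2 scale. TBC1D15, a gene for a regulator of Rab GTPases, had FPKM 11.8, 11.9 and 12.9. LRP5, a Wnt co-receptor gene, had 19.4, 19.6 and 21.2, and DMD, the dystrophin gene, had 7.40, 7.43 and 8.10. The measure rests on 3 values per gene, and the counting intervals of the TBK1 ratios to mock include 1 with either guide. Counting error alone therefore does not tell the profile that was matched from a flat one.

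IRF3 and IRF7, close relatives that TBK1 phosphorylates, stood far apart in level. IRF3 had FPKM 41.9, 40.2 and 39.1, higher than 89.5% of all genes by its mean. IRF7 had 0.361, 0.471 and 0.311, from 7, 9 and 5 reads. The level of IRF3 was 116, 85.3 and 126 times that of IRF7. The ratio of IRF3 to mock was 0.959 (0.882 to 1.04) with sgL1ASP #1 and 0.934 (0.854 to 1.02) with sgL1ASP #3, again with estimated reads. For IRF7 the ratios lay on both sides of 1, at 1.30 (0.432 to 4.12) and 0.860 (0.215 to 3.15). Between the guides IRF7 was 1.52-fold higher in sgL1ASP #1 than in sgL1ASP #3 (0.456 to 5.76), which rests on 9 reads against 5. IRF3 lies on chromosome 19 from 50162826 to 50169132, and IRF7 on chromosome 11 from 612553 to 615983, both on the minus strand.

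The order of levels was the same in all 3 libraries for the 8 genes with any read, from IRF3 over MAVS, TBK1, DDX58, TMEM173, IRF7 and MB21D1 to IFIH1, with IFIH1 and TLR3 tied at 0 in mock and sgL1ASP #1. The steps from IRF3 to MAVS, from MAVS to TBK1 and from TBK1 to DDX58 were outside the counting intervals in every library. Below DDX58, neighbours in this order had overlapping intervals in every library. Over the 6 genes under FPKM 1 there were 49, 55 and 46 reads.

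Against mock, 7 of the 9 genes gave a ratio, and a limit of 1.5-fold was passed by few. The study asked for this limit, upwards only, in sgL1ASP #1 over sgL1ASP #3 and in sgL1ASP #3 over mock. The counts here take each comparison alone and in both directions, so they are not made by the rule of the study. With sgL1ASP #1, 0 of 7 genes were higher and 1 was lower, against 5.88% higher and 5.99% lower of all genes above 0 in both libraries. With sgL1ASP #3, 0 were higher and 1 was lower, against 5.73% and 6.24%. The gene in both cases was MB21D1, with 2 reads against 1. Between sgL1ASP #1 and sgL1ASP #3, 1 was higher, IRF7, and 0 were lower, against 5.93% and 5.84%. Both comparisons with mock share the mock library, so the low ratio of MB21D1 in both rests on the same 2 reads. The 3 genes with mean FPKM at least 1 passed the limit in none of the 3 comparisons, in which 3.23%, 3.48% and 3.34% of such genes did. On the log2(FPKM + 0.1) scale, which understates changes of low genes, the 9 genes had a median of 0.0 with sgL1ASP #1 and of -0.045 with sgL1ASP #3, where all genes together had 0.0 in both. The 0.0 of the 9 genes is the value of IFIH1 and TLR3, which had 0 reads in both libraries, and -0.045 is that of TMEM173. Genes at 0 in every library are counted in the median over all genes. Over genes with mean FPKM at least 1, that median was 0.00085 with sgL1ASP #1 and 0.0015 with sgL1ASP #3. For the 9 genes, the median between the guides was -0.019.

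Around these 9 genes, 93 other genes of the pathway were followed in 9 role groups, and 55 of them (59.1%) had FPKM at least 1 in every library. This share differed between the groups. Of 9 other RNA sensors only EIF2AK2, which encodes the kinase PKR, was at least 1 in every library, with FPKM 8.92, 7.71 and 7.82, and 4 were at 0 in every library. DHX58, the third RIG-I-like helicase gene, had 5, 2 and 1 reads, with FPKM 0.197, 0.0800 and 0.0475. Its ratio to mock was 0.405 (0.0386 to 2.48) with sgL1ASP #1 and 0.241 (0.00509 to 2.15) with sgL1ASP #3. NLRP1, an inflammasome sensor gene, had 3, 3 and 2 reads.

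Of 8 other DNA sensors, 5 were at least 1 in every library. They were led by XRCC6 and XRCC5, the Ku subunits of DNA repair, and by the helicase gene DDX41. XRCC6 had FPKM 272, 278 and 267. These proteins also serve in DNA repair and RNA metabolism in every cell, while AIM2, whose main role is DNA sensing, was at 0 in the 3 libraries. IFI16, a nuclear DNA sensor gene, had 4, 1 and 3 reads, and was named after its values were seen.

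All 9 genes for removal of nucleic acids were at least 1 in every library. RNASEH2A, the catalytic subunit of the RNase that cuts RNA in hybrids with DNA, had FPKM 137, 143 and 147, and RNASEH2C had 85.5, 78.3 and 82.3. ADAR, which edits double-stranded RNA, had 47.4, 50.3 and 48.5. In this group the ratios to mock lay between 0.788 and 1.12 with sgL1ASP #1 and between 0.860 and 1.11 with sgL1ASP #3. With either guide 0 of these 9 genes passed 1.5-fold, against 3.23% and 3.48% of the genes whose mean FPKM was at least 1, a background at which 9 genes can give 0.

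**Figure D1:**
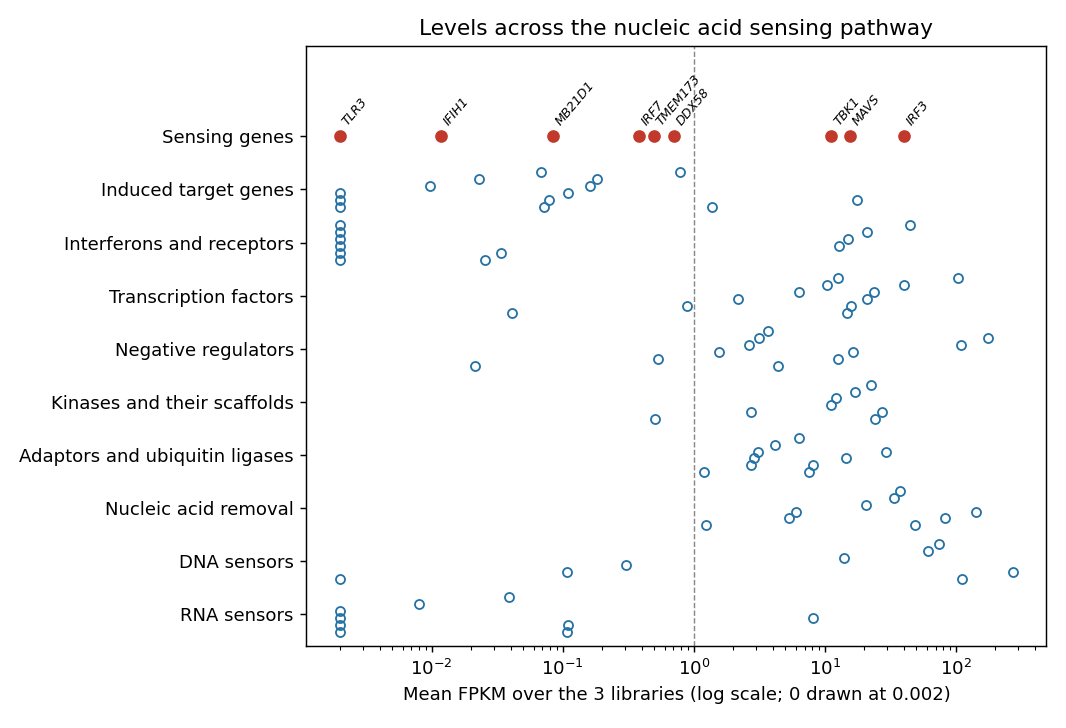
Mean FPKM over the 3 libraries (log scale) of the 9 sensing genes (filled) and of 93 other pathway genes (open) by role. Each point is a gene, points at 0 are drawn at 0.002, and the dashed line marks FPKM 1. Of the other RNA sensors 1 of 9 lies above the line, and of the genes for removal of nucleic acids 9 of 9 do.

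Of the 10 other adaptors and ubiquitin ligases, 9 were at least 1 in every library. The exception was TICAM1, the adaptor of TLR3, with FPKM 0.795, 1.23 and 1.59, from 21, 32 and 35 reads. Mock was the lowest of the 3 libraries. The ratio to mock was 1.54 (0.863 to 2.82) with sgL1ASP #1 and 2.01 (1.14 to 3.63) with sgL1ASP #3, so that only the second interval lies above 1. It was taken from 93 genes, and the interval holds no spread between cultures. In the same group UNC93B1, a chaperone gene of endosomal Toll-like receptors, had FPKM 6.64, 7.14 and 9.08, from 147, 156 and 167 reads. Its ratio to mock was 1.08 (0.853 to 1.36) with sgL1ASP #1 and 1.37 (1.09 to 1.72) with sgL1ASP #3. UNC93B1 stayed within 1.5-fold and was named after its values were seen. TOMM70A, a mitochondrial import receptor gene, had FPKM 29.1, 29.4 and 29.8, TRAF2 had 15.2, 14.0 and 14.6, and TRAF3, whose ubiquitin ligase links MAVS to TBK1, had 7.73, 8.34 and 8.47.

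Among the kinases and scaffolds that work with TBK1, 7 of 8 were at least 1 in every library. AZI2, a TBK1 scaffold gene, had FPKM 25.4, 32.0 and 25.0, and was the highest of this group. CHUK, an IκB kinase gene, had 24.0, 24.4 and 24.1, and the TBK1-binding TBKBP1 had 23.4, 21.3 and 22.5. Of the 11 negative regulators, 9 were at least 1 in every library, among them PCBP2 (175, 177 and 171) and ITCH (16.9, 16.1 and 16.4). Of the 12 other transcription factors, 10 were, led by JUN (101, 105 and 104), RELA (38.7, 40.8 and 41.9) and STAT2 (24.8, 23.8 and 23.0). In these 3 role groups 0 genes with mean FPKM at least 1 passed 1.5-fold with either guide, a count that groups of this size can give at the shares of 3.23% and 3.48%.

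Of the 8 interferon genes in the list, IFNB1, IFNA1, IFNA2, IL29, IL28A and IL28B were at 0 in every library. IFNE was above 0 only in sgL1ASP #1, at FPKM 0.0761, and IFNK only in mock, at 0.102. The genes of the type I interferon receptor and its kinases were at least 1 in every library. TYK2 had FPKM 43.0, 43.5 and 46.5, JAK1 had 21.1 in each, IFNAR1 lay between 12.2 and 13.4, and IFNAR2 had 13.3, 14.3 and 17.4. For IFNB1, whose transcript is only 839 bases, 0 reads allow FPKM of up to 0.448, 0.454 and 0.540. IFNB1 mRNA below that level was not detectable at this depth.

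Of 14 target genes of the pathway, MX1, RSAD2 and CXCL10 were at 0 in every library and ISG15 alone was at least 1 in all of them. ISG15, a ubiquitin-like interferon-induced gene, had FPKM 15.4, 16.8 and 20.8, and the ratio to mock with sgL1ASP #3 was 1.35 (0.975 to 1.87). BST2, which encodes the virus-tethering protein tetherin, had FPKM 0.781, 1.45 and 1.88, from 6, 11 and 12 reads. Its ratio to mock was 1.86 (0.630 to 6.12) with sgL1ASP #1 and 2.41 (0.836 to 7.82) with sgL1ASP #3, so both intervals include 1. IFIT1, which binds foreign RNA, had FPKM 0.979, 0.817 and 0.554, from 17, 14 and 8 reads, with a ratio to mock of 0.566 (0.212 to 1.38) for sgL1ASP #3.

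Over the 93 genes, 70 gave a ratio to mock with sgL1ASP #1, of which 4 were more than 1.5-fold higher and 6 lower, against 5.88% and 5.99% of all genes. With sgL1ASP #3, 3 of 70 were higher and 2 lower, against 5.73% and 6.24%. Between the guides, 2 of 71 were higher in sgL1ASP #1 and 5 lower, against 5.93% and 5.84%. Among the 57 genes with mean FPKM at least 1, 2 were higher and 0 lower with either guide, TICAM1 and BST2 in both cases, and between the guides 0 were called. The shares called over all such genes were 3.23%, 3.48% and 3.34%, so 2 of 57 is near the background and is no result about the pathway. As the comparisons with mock share a library, the recurrence of these genes is not independent.

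**Figure D2:**
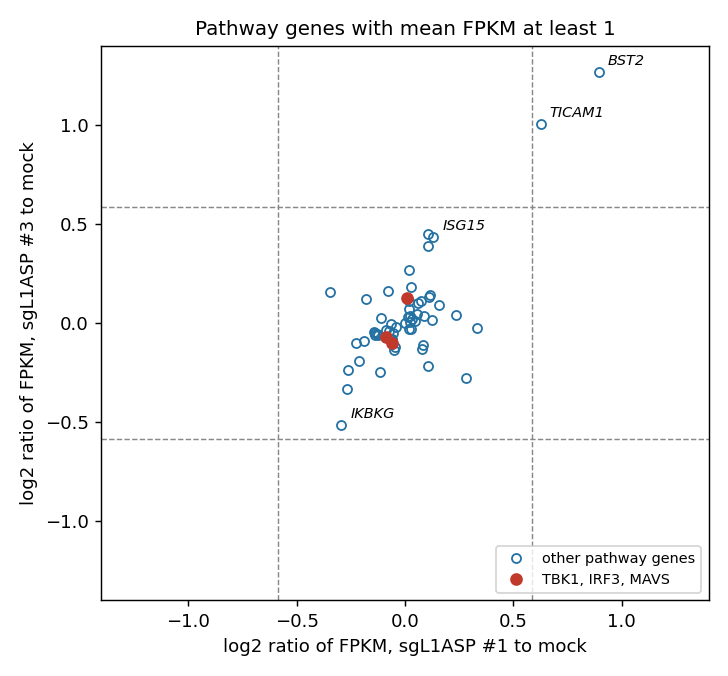
Log2 ratio of FPKM to mock with sgL1ASP #1 (horizontal axis) and with sgL1ASP #3 (vertical axis) for pathway genes with mean FPKM at least 1. Each point is a gene, filled points are TBK1, IRF3 and MAVS, and dashed lines mark 1.5-fold. TICAM1 and BST2 lie above 1.5-fold on both axes, and the filled points lie close to 0.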

How the data were processed

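Gene expression in 293T cells with dCas9-VP64 and mock, sgL1ASP #1 or sgL1ASP #3 was measured by stranded mRNA sequencing, with 1 library per group. The authors mapped 75-base reads to hg19 with TopHat2 2.0.13, Bowtie2 2.2.3 and SAMtools 0.1.19 and deposited FPKM per gene from Cuffdiff (Cufflinks 2.2.1). Their gene annotation and scaling between libraries are not given in the sources used here. The deposited FPKM were not rescaled. Calls used FPKM ratios past 1.5-fold without a pseudocount, and log2 changes used a pseudocount of 0.1.

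Whole reads were found by dividing FPKM by the commonest ratio between libraries among genes under FPKM 0.3 and searching up to 300 reads. For the 9 sensing genes, a multiple of up to 3 was taken where only it came within 1% of an annotated transcript length. For the other pathway genes the smallest numbers were kept without this check, so their reads can be a multiple of those given. Depth came from genes with 1 transcript over 1000 bases, less a fragment of 200 bases. For MAVS and IRF3, reads were estimated from the longest transcript in GENCODE 44 lifted to GRCh37, the sequence of hg19, and the limits of TLR3 and of the pathway genes at 0 use that length too. The limit of IFIH1 uses the worth of its 1 read. Counting intervals (95%) are exact Poisson for levels and exact binomial for ratios, and a count of 0 was given a limit of 3 reads. The members and lists were chosen with earlier results of these data known. The genes named were all 9 members, the 3 highest genes by mean FPKM of each role group, and each gene of mean FPKM at least 1 that passed 1.5-fold one way under both guides. Of these, 1 negative regulator is not reported here. The 3 genes most like TBK1 are described in the text. Genes outside this rule, such as AIM2, IFI16 and the interferon and target genes at 0, were named after their values were seen. The alternatives were other pseudocounts, filters, thresholds, scalings and transcript lengths. The read search and the calls were tested on simulated data, in which each value was a whole number of reads times a fixed worth. The search assumes the same, so the simulation does not cover genes for which whole numbers were not found. Scripts ran in Python 3.11.15 with SciPy 1.17.1, pandas 2.3.3, NumPy 2.4.6 and, for plots, matplotlib 3.10.9.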

Additional observations from a re-analysis of the deposited data

How the results depend on the processing

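No paired analysis was possible because there was only 1 library per group. Under every scaling and pseudocount tried, the log2 changes of MAVS, TBK1 and IRF3 lay between -0.22 and 0.13, within 1.5-fold. The calls among the sensing genes rest on MB21D1 and IRF7, which have few reads.

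Of the sensing genes, 1 was lower with sgL1ASP #1 than mock, 1 was lower with sgL1ASP #3, and 1 was higher in sgL1ASP #1 than in sgL1ASP #3. Each of these counts was 0 with a pseudocount of 0.1 or 1, under a filter of 1 on the mean or on the lowest FPKM, and with a 2-fold threshold. With a pseudocount of 0.01, 1 gene became higher with sgL1ASP #3 and between the guides 0 were higher and 1 lower, IFIH1 in each case, which gives a ratio only with a pseudocount. After rescaling to a sum of 1000000 the median log2 change of the sensing genes with sgL1ASP #3 was -0.15, where the median over all genes with mean FPKM at least 1 moved to -0.12.

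Of the other pathway genes, 4 were higher and 6 lower with sgL1ASP #1, 3 and 2 with sgL1ASP #3, and 2 and 5 between the guides. With sgL1ASP #1, the genes higher were 2 after rescaling to the sum, 9 with a pseudocount of 0.01, 2 under the filter on the mean, and 0 with a pseudocount of 1, under the filter on the lowest value or at 2-fold. The genes lower were 9 with a pseudocount of 0.01, 0 with one of 1 or with either filter, and 3 at 2-fold. With sgL1ASP #3, the genes higher were 5 with a pseudocount of 0.01, 1 with one of 1 and 0 under the filter on the lowest value. The genes lower were 4 after rescaling to the sum, 5 with a pseudocount of 0.01 or 0.1, 1 at 2-fold, and 0 with a pseudocount of 1 or with either filter. Between the guides, the genes higher were 4 after rescaling to the sum, 7 with a pseudocount of 0.01, 4 with one of 0.1, and 0 with one of 1, with either filter or at 2-fold. The genes lower were 3 with a pseudocount of 0.1 or at 2-fold, and 0 with a pseudocount of 1 or with either filter.

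Read numbers for longer genes depend on the transcript assumed. In mock, IRF3 had 1173 reads by its longest transcript and 348 by the median coding transcript, which would widen its intervals, and TBK1, with 328 whole reads, had 652 and 76.8 by these lengths.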
